A study of Sus scrofa domesticus with 8 samples.

Results

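The Wnt, Notch and hedgehog pathway genes described here are 50 genes measured in pig granulosa cells before and during 144 h of culture. They were chosen by symbol alone: Wnt ligands, frizzled and LRP receptors, SFRP and DKK proteins, R-spondins and LGR receptors, axins, TCF7-type factors and LEF1, Notch receptors and their JAG and DLL ligands, HES and HEY factors, and IHH, SMO, GLI and PTCH genes. They are 50 of 10708 genes named in the platform annotation, 32 of them in the Wnt pathway, 12 in the Notch pathway and 6 under the hedgehog part of the rule. For the 4 genes with more than 1 feature, the brightest feature by its average on the 8 arrays was read. PTCHD1 enters through its symbol, although it is not one of the classical hedgehog receptors. Members of these families such as PTCH1, HES1, NOTCH1, LRP6 and RSPO1 were not analysed here, nor was LGR5, whose feature the annotation shares with another gene.

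Granulosa cells line the ovarian follicle and nurse the oocyte. They came from crossbred Landrace gilts slaughtered at a median age of 170 days and a median weight of 98 kg, and the study used 43 animals. RNA was taken from cells before culture (0 h) and after 48 h, 96 h and 144 h in DMEM with 2% fetal bovine serum, L-glutamine, gentamicin, penicillin and streptomycin at 37 °C, with 2 Affymetrix arrays per time and 8 in all. All groups share the breed and age, no group had another treatment, and the labels do not say whether animals were pooled or which follicles were used. No label says whether the pair of arrays at a time stands for separate cultures, so the p-values rest on array-to-array spread that could be technical.

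Wnt proteins are secreted with the help of the carrier WLS and bind frizzled receptors together with LRP5 or LRP6. The signal then spares beta-catenin from destruction, so that it can act with TCF and LEF factors on target genes. SFRP proteins bind Wnt ligands outside the cell, and R-spondins acting through LGR4, LGR5 and LGR6 raise the sensitivity of a cell to them. Notch receptors are activated by JAG and DLL ligands on neighbouring cells and are cut by gamma-secretase. The freed fragment joins RBPJ and the MAML coactivators and switches on HES and HEY genes. In the mouse ovary, granulosa cells make Indian hedgehog (IHH) and desert hedgehog. These act on theca cells through PTCH1, SMO and the GLI factors.

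Values are log2 intensities, so a difference of 1 is a 2-fold change. Differences are the later minus the earlier time, with the standard error (SE) of the limma fit over all 8 arrays, and "called" means a Benjamini-Hochberg adjusted p below 0.05 over all 27558 features. No detection call was used. The lower quartile of the 8 arrays lay between 3.13 and 3.25 and their median between 4.52 and 4.63, and a level near the lower quartile is not shown to lie above background. No fold is given to or from such a level. Log2 differences to or from it are differences between readings that can understate the change in the transcript. Among them are those of SFRP2, SFRP1, HES7, ROR2, CD44 and LEF1 from 0 h, of SFRP1 from 48 h and of LEF1 to 144 h. Those of DLL3, IHH, SCUBE2 and SCUBE3 after 0 h are others. Arrays of a time correlated at 0.985 (144 h) to 0.997 (96 h) across features. In bulk samples, fewer cells of a type and less RNA per cell cannot be told apart. Of 16 granulosa markers, 10 had a named feature, and FSHR, CYP19A1 and FOXL2 were not analysed here. At 0 h all 10 lay above the lower quartile, with FST at 11.23 and HSD17B1 at 10.84. At 144 h 7 of them were lower than at 0 h and 1 was higher, and AMH, at 3.08, then lay below the lower quartile. Of 6 measured stromal and smooth muscle markers, all were higher at 48 h, 96 h and 144 h than at 0 h. Their mean log2 level was 5.49 and 5.56 on the 0 h arrays, 8.24 and 8.19 at 48 h, 9.15 and 9.15 at 96 h, and 10.13 and 9.80 at 144 h. Of 8 measured oocyte markers, 6 were lower at each later time, with a mean level of 5.67 and 5.52 at 0 h, 4.26 and 4.17 at 48 h, 4.22 and 4.23 at 96 h, and 3.99 and 4.06 at 144 h. The part of either marker shift in the results below was not tested.

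On the rising side, the genes that moved furthest were FZD2, DKK3, and SFRP2 and SFRP1, which encode extracellular Wnt binders. On the falling side they were IHH, LGR4, DLL3, TCF7L2 and JAG1. By limma's moderated F test over the 4 times, 22 of the 50 genes changed, or 44.0%, against 47.5% of all features. Of the 50, 16 passed the F test with time means at least 1 apart, against 25.3% of all features. Against 0 h, 6 genes were higher and 10 lower at 48 h, or 32.0% called against 30.0% of all features, of which 15.2% were higher and 14.8% lower. Likewise 10 were higher and 9 lower at 96 h, or 38.0% against 41.3% (19.0% higher and 22.3% lower). At 144 h these counts were 6 higher and 9 lower, or 30.0% against 32.1% (15.4% higher and 16.7% lower). These shares lie near those of all features, so the counts say nothing particular of the 50 genes. Of the 10708 named genes, 34.0% were called at 48 h, 44.9% at 96 h and 36.8% at 144 h against 0 h, and 51.8% by the F test. The 3 comparisons share the 0 h arrays. The median difference of the 50 genes was -0.08 at 48 h, -0.04 at 96 h and -0.04 at 144 h, and that of all features -0.04, -0.03 and -0.05.

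**Figure D1:**
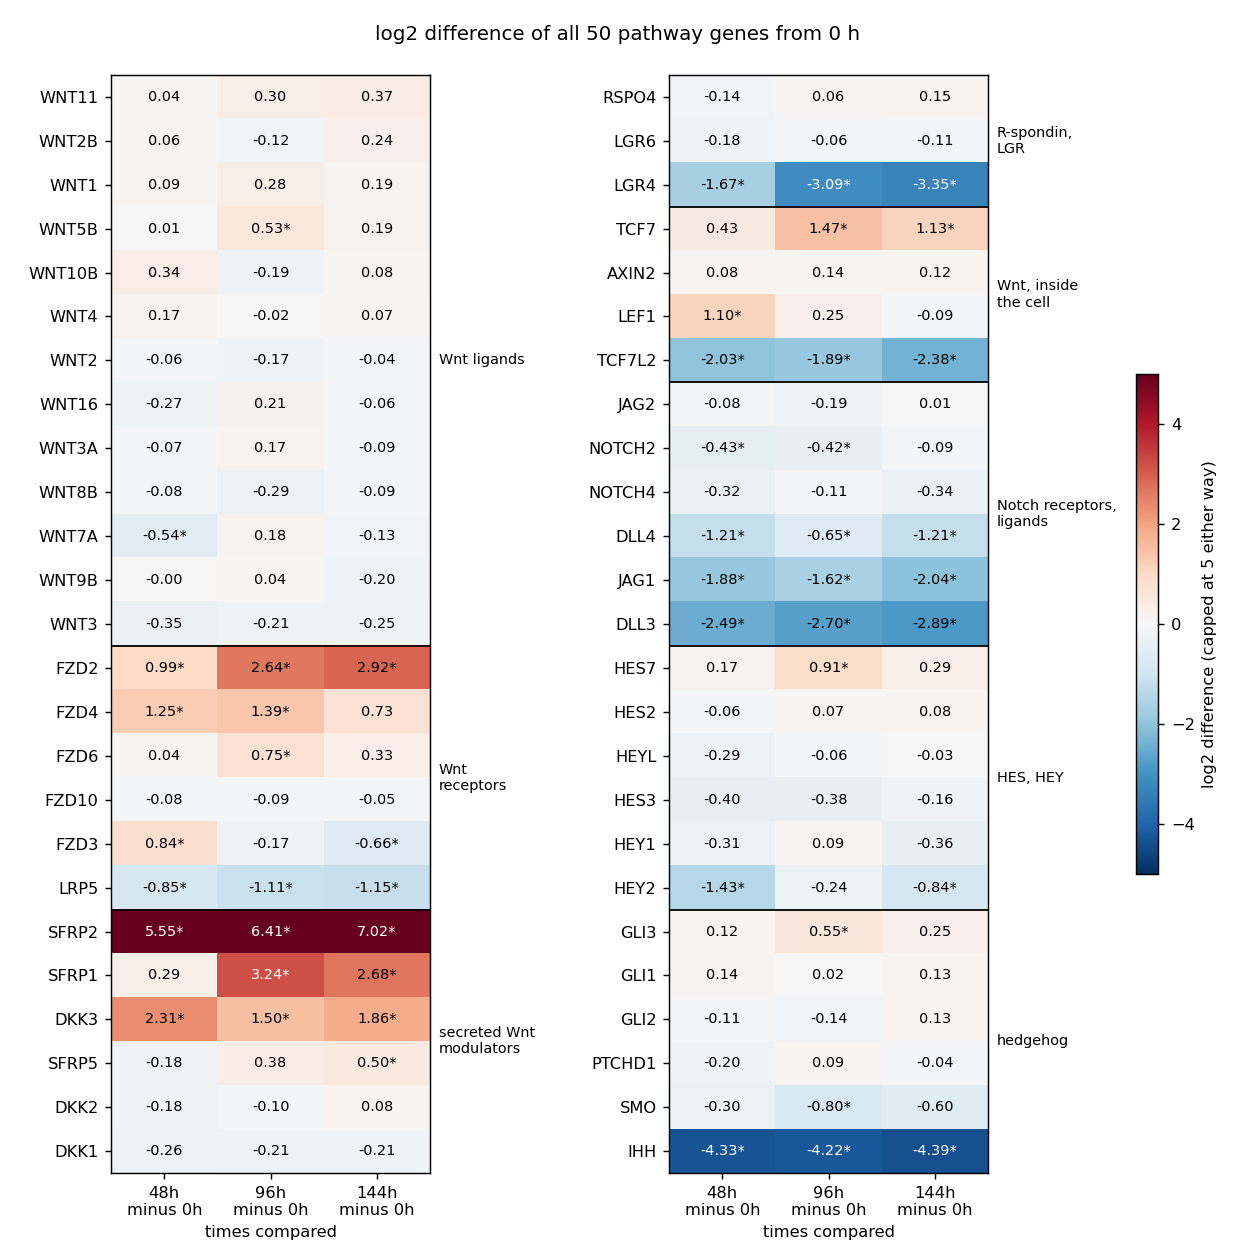
Difference in log2 intensity from 0 h at 48 h, 96 h and 144 h for each of the 50 pathway genes, grouped by role. Numbers are the differences, an asterisk marks an adjusted p below 0.05, and colours are capped at 5 either way: SFRP2 (7.02 at 144 h) and IHH (-4.39) lie at the ends, and the Wnt ligands lie within 0.54 of 0.

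**Figure D2:**
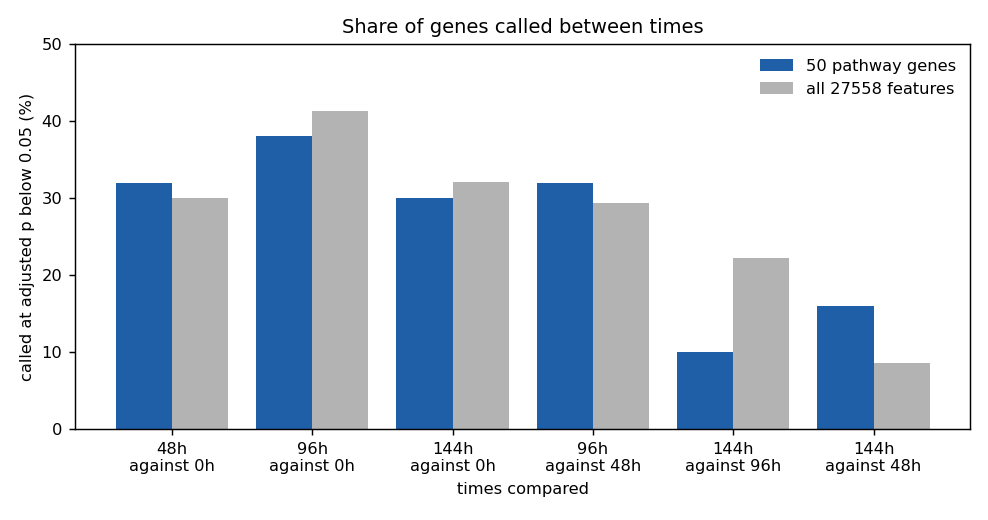
Percentage of the 50 pathway genes (blue) and of all 27558 features (grey) called between each pair of times. The shares are close for the 3 comparisons with 0 h. They part at 144 h against 96 h (10.0% and 22.2%) and at 144 h against 48 h (16.0% and 8.64%). Of all named genes, 23.1% were called at 144 h against 96 h and 10.4% at 144 h against 48 h. Both counts of the 50 genes changed when single arrays were left out.

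Between later times, 11 genes were higher at 96 h than at 48 h and 5 were lower, or 32.0%, against 29.4% of all features (13.4% higher and 16.0% lower). The count was 9 without 48 h replicate 1, and also 9 without 96 h replicate 1 or without 96 h replicate 2. Set against 48 h, 5 were higher and 3 lower at 144 h, or 16.0% against 8.64% (4.32% each way), and 5 in all without 48 h replicate 1 and also without 48 h replicate 2. At 144 h against 96 h, 5 were lower and none higher, or 10.0% against 22.2% (12.1% higher and 10.1% lower), and 13 had an unadjusted limma p below 0.05. This last count rests on single arrays: limma called 9 without 144 h replicate 1, 13 without 144 h replicate 2, 1 without 96 h replicate 1 and 0 without 96 h replicate 2, where 7 had an unadjusted p below 0.05.

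The Wnt ligand genes gave low readings with small differences between times, which do not bound changes in transcripts near background. All values of the 13 ligand genes on the 8 arrays lay between 2.54 and 5.25, and no gene's time means were more than 0.73 apart. WNT2 and WNT8B had no time mean above the lower quartile. By the F test WNT7A and WNT10B changed. WNT7A, a ligand known from the female reproductive tract, was 4.83 and 4.49 at 0 h, 3.93 and 4.30 at 48 h, 4.88 and 4.80 at 96 h, and 4.58 and 4.49 at 144 h. Its 48 h arrays were the lowest and overlapped with no other time, with a difference of -0.54 ± 0.16 from 0 h (adjusted p = 0.0382). With all arrays and the deposited scaling, WNT10B was called only between 96 h and 48 h (-0.53 ± 0.11, adjusted p = 0.00949). WNT5B, a ligand of beta-catenin-independent signalling, was 0.53 ± 0.16 higher at 96 h than at 0 h (adjusted p = 0.0261). Each of these 3 calls was lost when single arrays were left out (adjusted p = 0.0534 to 0.223), and that of WNT7A also after each of the 3 rescalings of the arrays (adjusted p = 0.0588 to 0.123). The difference of WNT10B at 48 h from 0 h was 0.34 ± 0.11 (adjusted p = 0.0537). It passed after each of the 3 rescalings and with dim features left out (adjusted p = 0.00879 to 0.0467). WNT4, which directs ovarian development in the mouse, had time means between 3.29 and 3.49. Its 95% interval at 144 h against 0 h ran from -0.20 to 0.33. Those levels lie near the lower quartile, so the interval does not bound a change in a transcript below background. The 2 WNT3A features carried the same value on every array, as did the 2 HES2 features, and count as 1 measurement each.

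Of the receptor genes, FZD2 rose over the culture, FZD3, FZD4 and FZD6 were higher at 1 or 2 of the later times than at 0 h, and LRP5 fell. FZD2 was 4.87 and 5.32 at 0 h, 5.94 and 6.23 at 48 h, 7.72 and 7.74 at 96 h, and 7.88 and 8.15 at 144 h. No pair of times overlapped, and the gene ended 2.92 ± 0.18 above 0 h (adjusted p = 9.12e-06), a 7.58-fold rise, with its largest step, of 1.64 ± 0.18, between 48 h and 96 h. FZD4, whose product also binds the ligand norrin, was 5.38 and 5.71 at 0 h, 6.77 and 6.82 at 48 h, 7.00 and 6.87 at 96 h, and 5.79 and 6.75 at 144 h. It rose by 1.25 ± 0.27 at 48 h (adjusted p = 0.00994) and 1.39 ± 0.27 at 96 h (adjusted p = 0.00389), while its 144 h arrays were nearly 1 apart. At 144 h the difference from 0 h was 0.73 ± 0.27 (adjusted p = 0.0794), and it was 1.21 and called without 144 h replicate 1. Leaving out 0 h replicate 1 or either 48 h array ended the 48 h call (adjusted p = 0.0516 to 0.0723).

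FZD3, a receptor known for axon guidance in the mouse, peaked at 48 h. Its values were 6.68 and 6.91 at 0 h, 7.53 and 7.74 at 48 h, 6.68 and 6.57 at 96 h, and 6.02 and 6.24 at 144 h. It was 0.84 ± 0.14 higher at 48 h than at 0 h (adjusted p = 0.00272) and 0.66 lower at 144 h (-0.66 ± 0.14, adjusted p = 0.00753), so that its differences at 48 h and at 144 h have opposite signs. Leaving out 0 h replicate 2 ended the 144 h call (adjusted p = 0.0597). FZD6 was highest at 96 h, at 8.23 and 8.13, against 7.41 and 7.45 at 0 h, a difference of 0.75 ± 0.13 (adjusted p = 0.0018). FZD10 was not called in any comparison and its time means were at most 0.09 apart. LRP5, the co-receptor of the beta-catenin branch, went the other way. It was 6.85 and 7.00 at 0 h, 5.96 and 6.20 at 48 h, 5.85 and 5.78 at 96 h, and 5.43 and 6.13 at 144 h. Every later array lay below both 0 h arrays, with a difference of -1.15 ± 0.22 at 144 h (adjusted p = 0.00419), 2.21-fold lower, and no later pair of times was called. Its 48 h call did not hold without either 0 h array or without 48 h replicate 1 (adjusted p = 0.0628 to 0.118).

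**Figure D3:**
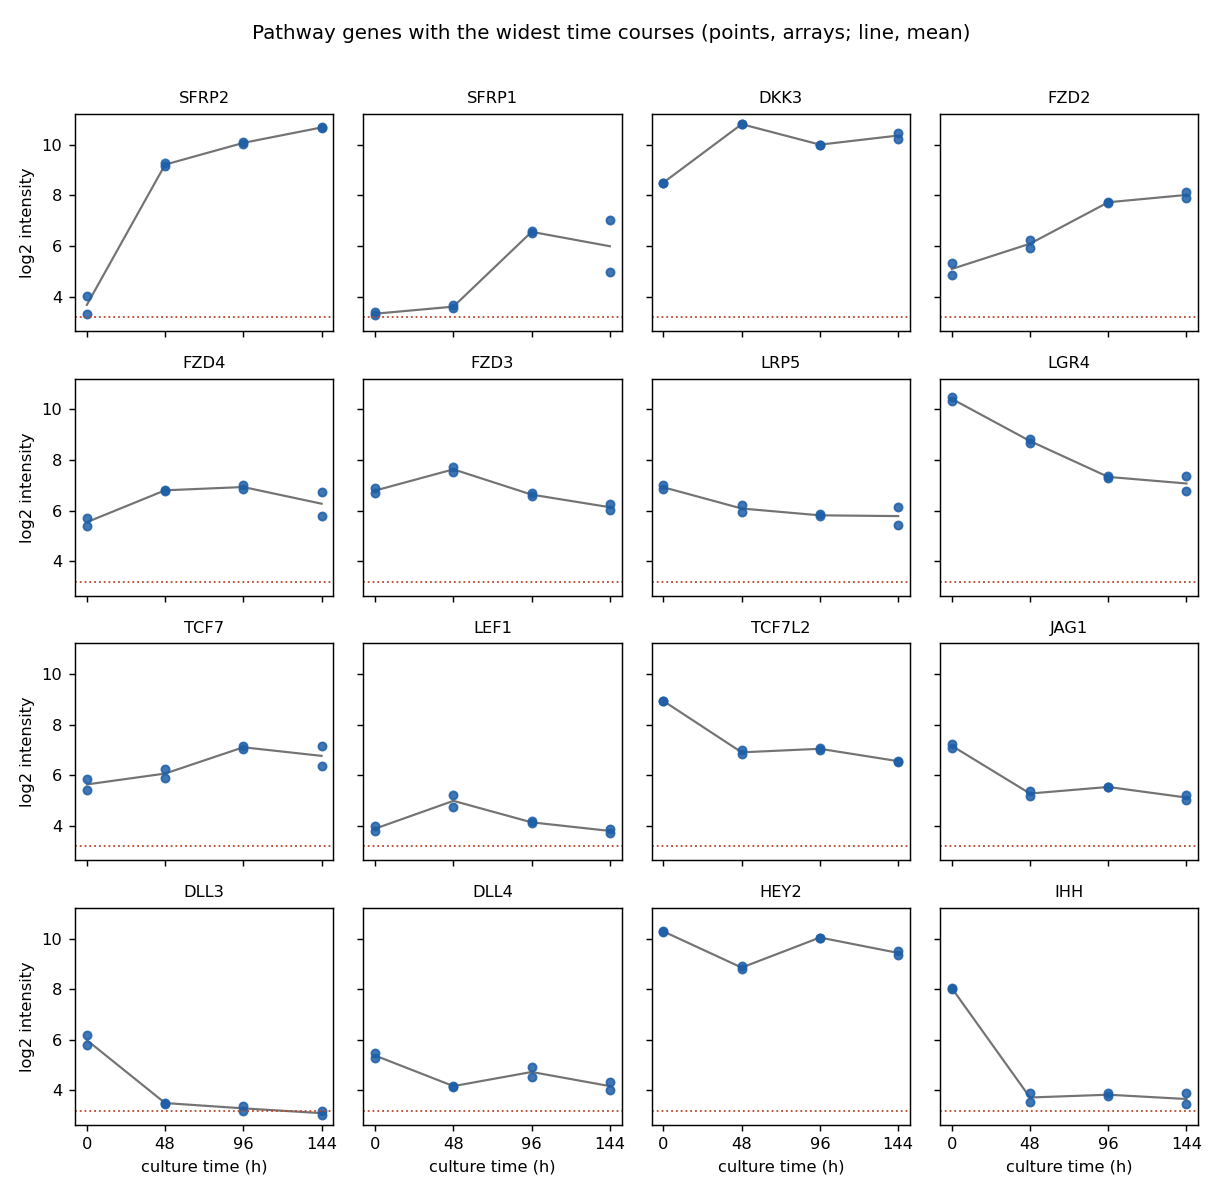
Log2 intensity on each of the 8 arrays (points) and the mean per time (line) against culture time for the 16 pathway genes that changed by the F test with time means at least 1 apart. The dotted line is the mean lower quartile of the arrays. Near it lay IHH and DLL3 from 48 h on, SFRP2 at 0 h, SFRP1 at 0 h and 48 h, and LEF1 at 0 h and 144 h. The SFRP1 arrays at 144 h (7.03 and 4.96) stand furthest apart.

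The secreted Wnt modulators held the largest rise among the 50 genes. SFRP2 was 3.31 and 4.04 at 0 h, 9.27 and 9.17 at 48 h, 10.11 and 10.05 at 96 h, and 10.69 and 10.68 at 144 h. Times did not overlap at any step, and after 48 h the gene still gained 1.47 ± 0.21 up to 144 h (adjusted p = 0.00442). Its other feature read 4.09 and 4.39 at 0 h and 9.53 and 9.47 at 144 h, a difference of 5.26 in place of 7.02, and it gained 1.32 after 48 h (adjusted p = 0.000891). SFRP1, of the same family, stayed behind. It was 3.26 and 3.37 at 0 h, 3.55 and 3.66 at 48 h, 6.53 and 6.59 at 96 h, and 7.03 and 4.96 at 144 h. At 48 h it had not passed the test (0.29 ± 0.53, adjusted p = 0.741), and at 96 h it was 3.24 ± 0.53 above 0 h (adjusted p = 0.0014) and 2.96 ± 0.53 above 48 h (adjusted p = 0.00419). Its 144 h arrays lay on either side of the 96 h arrays. They averaged 2.68 ± 0.53 above 0 h (adjusted p = 0.00527). SFRP1 had the widest SE of the 50 genes. Without 144 h replicate 2 it was 0.47 higher at 144 h than at 96 h, and without 144 h replicate 1 it was 1.60 lower (-1.60), both called.

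DKK3, a secreted glycoprotein of the dickkopf family whose effect on Wnt signalling depends on the cell, rose early and partly receded. It was 8.51 and 8.50 at 0 h, 10.82 and 10.82 at 48 h, 10.01 and 10.01 at 96 h, and 10.24 and 10.49 at 144 h. The rise at 48 h was 2.31 ± 0.12 (adjusted p = 5.91e-06), a 4.97-fold change, and the gene was 0.81 lower at 96 h than at 48 h (-0.81 ± 0.12, adjusted p = 0.00157). At 144 h it still stood 1.86 ± 0.12 above 0 h. DKK1 and DKK2, which encode inhibitors that bind LRP5 and LRP6 (DKK2 also activates in some settings), were not called in any comparison. DKK1 read at most 2.78, below the lower quartile of every array. SFRP5 was 0.50 ± 0.16 higher at 144 h than at 0 h (adjusted p = 0.0449), a call that did not hold without any 1 of 7 arrays (adjusted p = 0.0615 to 0.205). Of the 6 modulators 4 were higher at 144 h than at 0 h, SFRP5 with its fragile call among them, against 15.4% of all features. Their median difference was 1.18, against -0.05 for all features. SFRP2 and SFRP1 rose beside the stromal markers given above, whose part in this was not tested.

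LGR4, the receptor through which R-spondins act, had the largest fall in the Wnt pathway. It was 10.33 and 10.51 at 0 h, 8.84 and 8.66 at 48 h, 7.30 and 7.36 at 96 h, and 7.36 and 6.77 at 144 h. The fall came in 2 steps, -1.67 ± 0.19 by 48 h (adjusted p = 0.000334) and a further -1.42 ± 0.19 between 48 h and 96 h (adjusted p = 0.00105). After that the times overlapped, and at 144 h the gene was 10.2-fold lower than at 0 h (-3.35 ± 0.19, adjusted p = 6.04e-06). LGR6 and RSPO4 were not called in any comparison. Their time means spanned 0.18 and 0.28, and those of RSPO4 (3.49 to 3.78) lay not far above the lower quartile.

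The nuclear factors of the pathway diverged. TCF7L2, which with beta-catenin drives target genes, was 8.94 and 8.92 at 0 h, 6.83 and 6.98 at 48 h, 7.01 and 7.07 at 96 h, and 6.57 and 6.53 at 144 h. It was low on every cultured array, 4.08-fold lower at 48 h (-2.03 ± 0.11, adjusted p = 7.18e-06) and 5.22-fold lower at 144 h (-2.38 ± 0.11, adjusted p = 1.95e-06). Its relative TCF7 was higher later on. TCF7 was 5.42 and 5.84 at 0 h, 5.87 and 6.24 at 48 h, 7.03 and 7.16 at 96 h, and 6.35 and 7.17 at 144 h. Its difference from 0 h was 1.47 ± 0.27 at 96 h (adjusted p = 0.00275) and 1.13 ± 0.27 at 144 h (adjusted p = 0.0136), and the 144 h call did not hold without 0 h replicate 1 (adjusted p = 0.0973). LEF1 was 3.98 and 3.79 at 0 h, 4.74 and 5.22 at 48 h, 4.09 and 4.17 at 96 h, and 3.86 and 3.72 at 144 h. It was highest at 48 h, 1.10 ± 0.17 above 0 h (adjusted p = 0.00164) and back within the 0 h arrays' range on 1 of the 144 h arrays, and it was 1.19 lower at 144 h than at 48 h (-1.19 ± 0.17, adjusted p = 0.00412). AXIN2, a feedback inhibitor and widely used readout of beta-catenin signalling, was not called and had no time mean above the lower quartile. Its readings of 2.90 to 3.26 cannot show whether the transcript changed.

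Of the 4 Notch ligand genes, JAG1, DLL3 and DLL4 fell within 48 h and were called lower than at 0 h at each later time. JAG1 was 7.07 and 7.24 at 0 h, 5.37 and 5.17 at 48 h, 5.53 and 5.53 at 96 h, and 5.02 and 5.21 at 144 h. Every cultured array lay at least 1 below both 0 h arrays, and at 144 h the gene was 4.11-fold lower than at 0 h (-2.04 ± 0.13, adjusted p = 9.68e-06). DLL3, a divergent ligand that inhibits Notch in the cell that makes it in the mouse, was 5.79 and 6.17 at 0 h, 3.50 and 3.47 at 48 h, 3.38 and 3.18 at 96 h, and 3.02 and 3.17 at 144 h. It fell by 2.49 ± 0.15 at 48 h (adjusted p = 1.33e-05). Its 144 h arrays read below their own lower quartiles of 3.13 and 3.20. DLL4, best known from the growing tips of blood vessels, was 5.26 and 5.48 at 0 h, 4.17 and 4.14 at 48 h, 4.51 and 4.93 at 96 h, and 4.02 and 4.31 at 144 h. It fell by 1.21 ± 0.17 at 48 h (adjusted p = 0.00113) and was 0.57 ± 0.17 higher at 96 h than at 48 h (adjusted p = 0.0405), a call that did not hold without either 0 h array, either 48 h array or 96 h replicate 2 (adjusted p = 0.0557 to 0.267). Its 96 h fall (-0.65 ± 0.17, adjusted p = 0.0166) did not hold without 0 h replicate 2 (adjusted p = 0.106) or 96 h replicate 1 (adjusted p = 0.136). JAG2 was not called, and its 95% interval at 144 h against 0 h was -0.30 to 0.33. In the mouse follicle JAG1 is also made by the oocyte, and these falls stand beside the lower oocyte markers. Among those, ZP4 was 3.26 at 48 h and 6.16 at 0 h, and GDF9 was 5.78 at 48 h and 6.91 at 0 h. The part of oocyte RNA in the ligand values was not tested.

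The receptor gene NOTCH2 changed by less than 1, and the responding gene HEY2 dipped at 48 h. NOTCH2, the receptor of mouse granulosa cells, was 9.25 and 9.37 at 0 h, 8.92 and 8.86 at 48 h, 8.88 and 8.92 at 96 h, and 9.33 and 9.12 at 144 h. It was lower by less than 1 at 48 h (-0.43 ± 0.12, adjusted p = 0.0265) and at 96 h (-0.42 ± 0.12, adjusted p = 0.0216), and at 144 h its 95% interval against 0 h was -0.36 to 0.18. Both calls ended after median centring (adjusted p = 0.0541 and 0.0677) and without 0 h replicate 2, 96 h replicate 1 or 96 h replicate 2 (adjusted p = 0.0601 to 0.14), and that at 48 h also without 0 h replicate 1 or either 48 h array (adjusted p = 0.062 to 0.109). NOTCH4, an endothelial receptor, was not called. HEY2, a Notch-responsive repressor, was 10.29 and 10.26 at 0 h, 8.80 and 8.90 at 48 h, 10.03 and 10.04 at 96 h, and 9.51 and 9.36 at 144 h. No pair of times overlapped, and the course dipped and recovered. It was 2.69-fold lower at 48 h than at 0 h (-1.43 ± 0.11, adjusted p = 4.4e-05) and 1.19 ± 0.11 higher at 96 h than at 48 h (adjusted p = 0.000184). At 144 h it was again below 96 h (-0.60 ± 0.11, adjusted p = 0.00652, or 0.0601 and 0.0606 without either 96 h array) and 0.84 below 0 h (-0.84 ± 0.11, adjusted p = 0.00058). At 96 h it did not pass against 0 h (-0.24 ± 0.11, adjusted p = 0.122), although it passed after cyclic loess (-0.36, adjusted p = 0.0245) and after a further quantile normalization (-0.32, adjusted p = 0.0433). JAG1 and DLL4 had their highest cultured mean at 96 h as well, but for JAG1 the step from 48 h to 96 h was not called (0.26 ± 0.13, adjusted p = 0.17).

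HES7, the oscillating repressor of the mouse segmentation clock, also had its highest values at 96 h. It was 2.97 and 2.99 at 0 h, 3.13 and 3.17 at 48 h, 3.85 and 3.93 at 96 h, and 3.30 and 3.25 at 144 h, so that its 96 h arrays stood furthest above the lower quartile. The difference from 0 h was 0.91 ± 0.10 at 96 h (adjusted p = 0.000187). At 144 h it was 0.29 ± 0.10 (adjusted p = 0.0647), and it passed after each of the 3 rescalings (adjusted p = 0.0233 to 0.0359). HES2, HES3, HEY1 and HEYL were not called in any comparison, and their time means spanned 0.14 to 0.45. Of the 12 Notch genes, 5 were called lower at 48 h against 0 h, against 14.8% of all features. By limma's F test 6 of the 12 changed over the 4 times, near the 47.5% of all features.

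IHH, the hedgehog ligand gene of granulosa cells, had the largest fall of the 50 genes and was at its low level by 48 h. It was 8.02 and 8.06 at 0 h, 3.90 and 3.53 at 48 h, 3.87 and 3.78 at 96 h, and 3.87 and 3.44 at 144 h. The 6 cultured arrays overlapped among themselves and lay over 4 below 0 h, with a difference of -4.39 ± 0.18 at 144 h (adjusted p = 1.09e-06) and no call between later times. Of the genes on the receiving side, SMO and GLI3 were each called at 96 h. SMO, which relays the signal when the ligand binds PTCH1, was 8.07 and 8.33 at 0 h, 7.81 and 7.99 at 48 h, 7.40 and 7.41 at 96 h, and 7.26 and 7.93 at 144 h. It was called lower at 96 h than at 0 h (-0.80 ± 0.21, adjusted p = 0.0164), and it passed neither at 48 h (-0.30 ± 0.21, adjusted p = 0.338) nor at 144 h (-0.60 ± 0.21, adjusted p = 0.0629), where its interval was -1.09 to -0.12. The 144 h difference passed after cyclic loess, a further quantile normalization, leaving out dim features, eBayes with trend and robust, and the replicate block (adjusted p = 0.03 to 0.0499), and without 144 h replicate 2 (-0.94, adjusted p = 0.00258). Leaving out 0 h replicate 2 or either 96 h array ended the 96 h call (adjusted p = 0.0755 to 0.106). GLI3, a GLI factor that mainly represses, was 0.55 ± 0.18 higher at 96 h than at 0 h (adjusted p = 0.0423), which did not hold without 0 h replicate 1, either 48 h array or either 96 h array (adjusted p = 0.0563 to 0.245). GLI1, itself a target and readout of hedgehog signalling, was not called at its brighter feature, with a 95% interval of -0.24 to 0.51 at 144 h against 0 h. Its other feature was 0.33 higher at 48 h than at 0 h (adjusted p = 0.0467). Readings of the brighter GLI1 feature lay between 3.58 and 3.99, not far above the lower quartile, and GLI2 was not called. GLI1 is also 1 of the 5 measured theca markers, so that list is not separate from the hedgehog genes. Of the others, CYP17A1, the enzyme gene that defines steroid-making theca cells, had time means of 2.64 to 3.04, below the lower quartile at each time. INSL3, another theca product, was lower at 48 h, 96 h and 144 h (-1.50, -1.77 and -1.60). ANPEP, used to mark theca cells and also made by fibroblasts, was higher by 1.14 at 48 h, 4.48 at 96 h and 5.79 at 144 h. NR2F2, a theca and stromal nuclear receptor gene, was 0.63 higher at 48 h and not called later. The part of theca RNA in the hedgehog values was not tested.

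**Figure D4:**
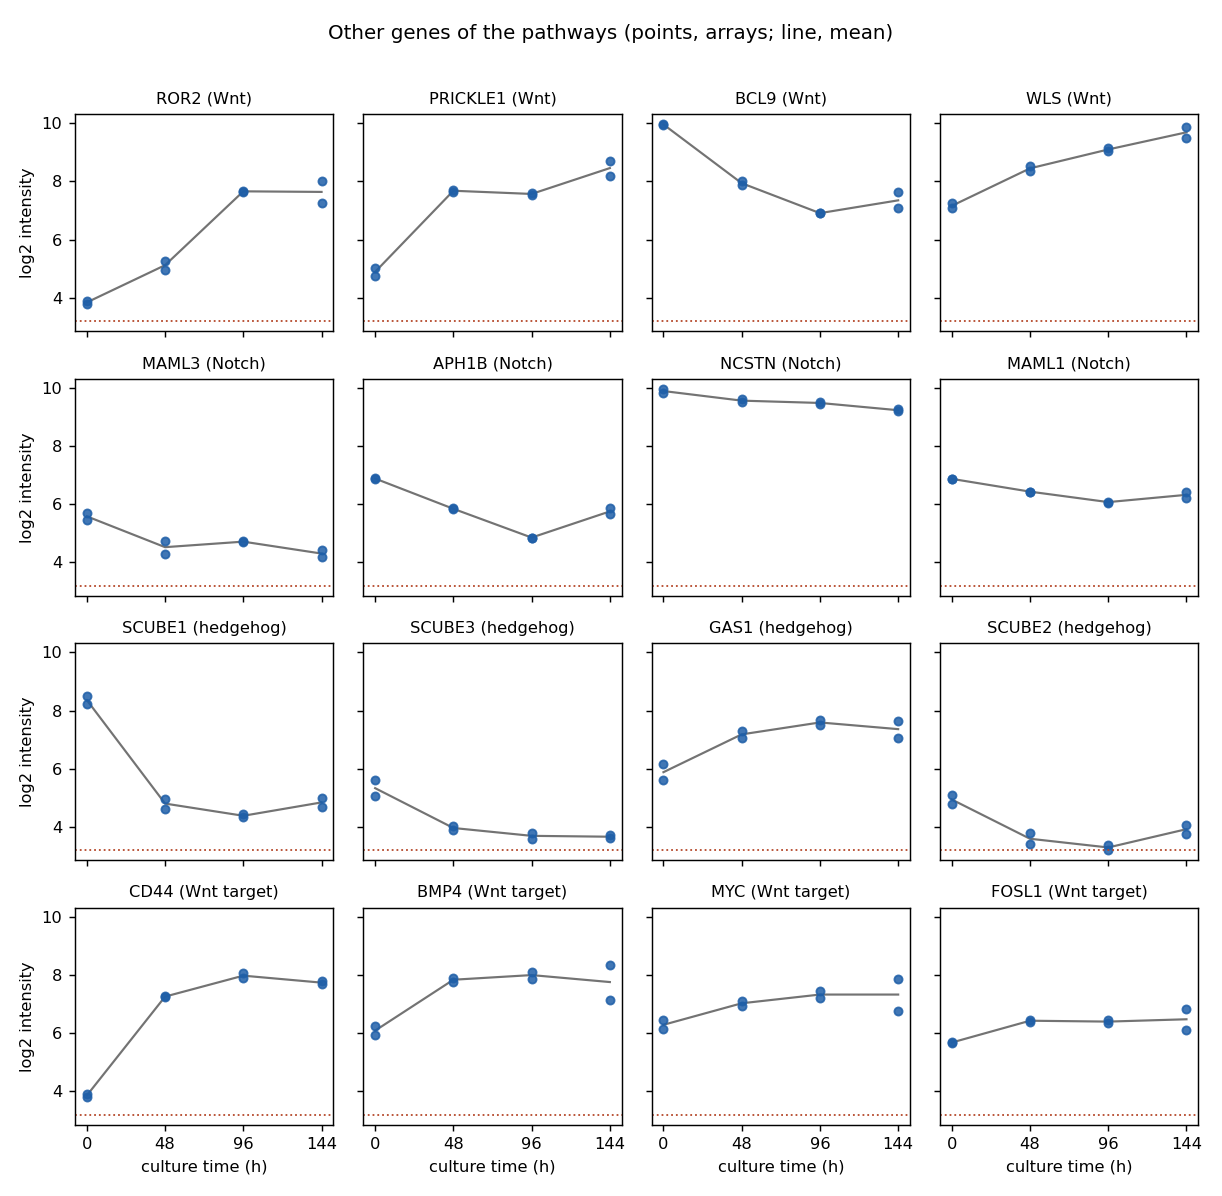
Log2 intensity on each array (points) and the mean per time (line) against culture time for 16 further genes, the 4 of each pathway list with the largest difference between 144 h and 0 h that were not already shown. The dotted line is the mean lower quartile of the arrays. ROR2, PRICKLE1, WLS, GAS1, CD44, BMP4, MYC and FOSL1 end above their 0 h level. BCL9, the 3 SCUBE genes, MAML3, MAML1, APH1B and NCSTN end below theirs.

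Other Wnt pathway genes were set beside the 50. Of 52 such genes 32 had a named feature, of which 11 were called higher at 48 h than at 0 h and 7 lower, and 12 higher and 6 lower at 144 h. That is 56.2% called at either time, against 30.0% of all features at 48 h and 32.1% at 144 h. The shares of all named genes, the closer comparison for this and the lists below, were 34.0% and 36.8%. Their median difference was 0.08 at 48 h and 0.00 at 144 h, against -0.04 and -0.05 for all features. ROR2, a receptor of beta-catenin-independent Wnt signalling, was 3.78 and 3.90 at 0 h, 5.28 and 4.96 at 48 h, 7.67 and 7.65 at 96 h, and 8.01 and 7.27 at 144 h. Its 144 h difference from 0 h was 3.80 ± 0.23 (adjusted p = 7.99e-06), and its later arrays all lay above 0 h. PRICKLE1, of the planar polarity branch, rose by 3.57 ± 0.18 at 144 h (adjusted p = 3.12e-06). WLS, the carrier that Wnt ligands need for secretion, was called higher at each step and was 2.53 ± 0.15 above 0 h at 144 h (adjusted p = 7.93e-06), although its steps after 48 h were not called without either 96 h array (adjusted p = 0.0701 to 0.159). BCL9, a coactivator of beta-catenin, was 9.94 and 9.97 at 0 h, 7.87 and 8.02 at 48 h, 6.92 and 6.91 at 96 h, and 7.07 and 7.63 at 144 h. Like TCF7L2 it fell, by 2.61 ± 0.18 at 144 h (adjusted p = 1.48e-05). CTNNB1, the gene of beta-catenin itself, was called higher than at 0 h at each later time (0.65 ± 0.11 at 144 h, adjusted p = 0.00256). So were APC, GSK3B and CSNK1A1 of the same list (1.31 ± 0.17, 0.82 ± 0.11 and 0.45 ± 0.14 at 144 h).

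Of 16 listed Wnt target genes 11 were measured, 3 of them (TCF7, LEF1 and AXIN2) already among the 50. RNF43 and ZNRF3 also stand in the preceding list and are counted in both. Against 0 h, 4 of the 11 were higher and 1 (ZNRF3) lower at 48 h, and 5 were higher at 144 h, TCF7 among them. That is 45.5% called at either time, against 30.0% and 32.1% of all features. CD44, a hyaluronan receptor, rose by 3.87 ± 0.12 at 144 h (adjusted p = 3.27e-07) and BMP4 by 1.67 ± 0.33 (adjusted p = 0.0055). MYC rose by 1.04 ± 0.31 (adjusted p = 0.0351) and FOSL1, an AP-1 subunit, by 0.79 ± 0.21 (adjusted p = 0.0217). The call of MYC ended without any 1 of 7 arrays (adjusted p = 0.0566 to 0.172), and that of FOSL1 without either 0 h array (adjusted p = 0.087 and 0.0954). All 4 are also controlled by other pathways. Of the targets that act as feedback inhibitors, AXIN2 and RNF43 were not called, and ZNRF3, which like RNF43 removes frizzled receptors, was lower at 48 h (-0.56) and 96 h (-0.96), the 48 h call being lost without either 0 h array or 48 h replicate 1 (adjusted p = 0.0538 to 0.152).

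Of 34 other Notch pathway genes 18 were measured, of which 1 was called higher at 48 h than at 0 h and 4 lower, and again 1 higher and 4 lower at 144 h. That is 27.8% called at either time, near the 30.0% and 32.1% of all features. Their median difference was -0.10 at 48 h and -0.18 at 144 h, against -0.04 and -0.05 for all features. APH1B, a gamma-secretase subunit, was 6.87 and 6.90 at 0 h, 5.85 and 5.82 at 48 h, 4.85 and 4.84 at 96 h, and 5.85 and 5.65 at 144 h. Its lowest point was 96 h, where it was 2.04 below 0 h (-2.04 ± 0.11, adjusted p = 3.76e-06). The coactivator gene MAML3 was lower at 144 h (-1.27 ± 0.17, adjusted p = 0.000599), as were MAML1 (-0.55 ± 0.11, adjusted p = 0.00632) and the gamma-secretase subunit gene NCSTN (-0.66 ± 0.11, adjusted p = 0.00273). ADAM17, a sheddase that can cut Notch, was the riser, 1.06 higher at 48 h and 0.35 higher at 144 h, but its other feature differed by 0.67 at 48 h, -1.07 at 96 h and 0.19 at 144 h. The 144 h call of ADAM17 was lost by the mean of its features (adjusted p = 0.122) and without any 1 of 7 arrays (adjusted p = 0.0605 to 0.203). RBPJ, the DNA-binding partner, was not called and differed by 0.33 at 48 h and 0.01 at 144 h.

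Of 25 other hedgehog pathway genes 11 were measured, of which 2 were called higher at 48 h than at 0 h and 3 lower, and 4 higher and 3 lower at 144 h. That is 45.5% called at 48 h and 63.6% at 144 h, against 30.0% and 32.1% of all features. Their median difference was -0.03 at 48 h and -0.20 at 144 h, against -0.04 and -0.05. All 3 that fell at 48 h were SCUBE genes, whose secreted products help release hedgehog ligand from the cells that make it, as shown for SCUBE2. SCUBE1 was 8.24 and 8.49 at 0 h, 4.96 and 4.63 at 48 h, 4.44 and 4.33 at 96 h, and 4.68 and 5.00 at 144 h. Like IHH it was low on all 6 cultured arrays, by 3.57 ± 0.17 at 48 h (-3.57, adjusted p = 4.12e-06). SCUBE3 fell by 1.37 ± 0.18 at 48 h (adjusted p = 0.000786) and SCUBE2 by 1.34 ± 0.18 (adjusted p = 0.000797). GAS1, a co-receptor that binds hedgehog ligand, rose by 1.30 ± 0.23 at 48 h (adjusted p = 0.00389) and stood 1.48 ± 0.23 above 0 h at 144 h (adjusted p = 0.00169). SHH had time means of 2.75 to 2.90, below the lower quartile, and was not called.

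The courses of the 16 genes with wide time courses can be ordered by when they changed. IHH, JAG1, DLL3, DLL4, TCF7L2 and LRP5 were low by 48 h, and with all arrays and the deposited scaling, of these TCF7L2 alone was called between 144 h and 96 h (-0.49 ± 0.11, adjusted p = 0.0141, or 0.0855 and 0.117 without either 96 h array) and DLL4 alone between 96 h and 48 h. For 144 h against 96 h JAG1 (adjusted p = 0.0508) and DLL4 (adjusted p = 0.0522) passed after each of the 3 rescalings and with dim features left out (adjusted p = 0.0281 to 0.0463). LGR4 fell and FZD2 and SFRP2 rose over both the first and the second interval, the second step of SFRP2 (0.86 ± 0.21, adjusted p = 0.0172) being lost without either 48 h or either 96 h array (adjusted p = 0.0649 to 0.0975). FZD4 rose in the first interval, DKK3, FZD3 and LEF1 rose in it and fell in the second, and HEY2 fell in it and rose in the second. The second-interval fall of LEF1 did not hold without 96 h replicate 1 (adjusted p = 0.0543). SFRP1 and TCF7 passed the test only from 96 h on. The 28 genes that did not pass the F test had time means 0.09 to 0.80 apart, with a median of 0.28.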

How the data were processed

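The deposited table held log2 intensities of 27558 features on 8 arrays, which the authors produced by RMA according to the submitters' processing notes. This method corrects background and brings the arrays to a shared distribution, so it hides a shift common to most transcripts. The software behind it is not given in the sources used here. The labels gave each array's time and the titles its replicate number. GEO's platform annotation, possibly dated, named the genes: 11735 features had 1 symbol, 612 several and 15211 none in the table used, and only the first kind was named. Of the 50 genes, 49 had a gene identifier in the RefSeq table, and no symbol differed there. The members and lists were chosen with earlier results of these data known.

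All features were fitted with limma 3.58.1 (lmFit, eBayes; R 4.3.3), as 1 mean for each time on all 8 arrays, with 4 degrees of freedom left over and 3.98 added by the prior. Tests were two-sided. P-values were adjusted after Benjamini and Hochberg over the 27558 features of each comparison. The steps were tested on simulated data. Genes given with every array changed by the F test with time means at least 1 apart, other members are given by time means, differences or counts, and array values of WNT7A, NOTCH2, SMO, HES7 and FZD6 were added after they were seen. Of each further list, up to 4 genes with the largest 144 h difference are named, and others named there were chosen after their values were seen. Alternatives were median centring, a further quantile normalization, cyclic loess, leaving out dim features, eBayes with trend and robust, only the 4 arrays compared, a replicate block, the mean of a gene's features, leaving out the 96 h arrays, and leaving out each array. The number of arrays limits the precision. No sequence was used here.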

Additional observations from a re-analysis of the deposited data

How the results depend on the processing

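The 7 counts of genes called stayed within 1.5 times of the values given under each scaling, the dim filter (36 of the 50 genes kept), eBayes with trend and robust, the mean of a gene's features and the fit without the 96 h arrays. With only the 4 arrays compared, 5 genes in place of 8 were called between 144 h and 48 h, where the spread has fewer residual degrees of freedom, and no other count left that range. Leaving out 1 array at a time gave 12 to 17 at 48 h against 0 h, 14 to 21 at 96 h against 0 h, 13 to 18 at 144 h against 0 h, 9 to 18 at 96 h against 48 h, 0 to 13 at 144 h against 96 h, 5 to 11 at 144 h against 48 h and 17 to 26 by the F test. Deviations from the time mean of arrays with the same replicate number correlated between times at -0.038 to 0.188. With 2 arrays per time, this cannot show whether the numbers pair the arrays. With the replicate number as a block, limma called 15, 19 and 16 genes against 0 h at 48 h, 96 h and 144 h, 16 between 96 h and 48 h, 5 between 144 h and 96 h, 9 between 144 h and 48 h and 23 by the F test. Of 4251 recomputed differences of 43 named genes, 3932 kept their sign and call or were not called either way, 227 lost their call and 89 gained one. The 3 exceptions in direction were SFRP1 at 144 h against 96 h, at -0.56 and not called with all arrays, which ran from -1.60 to 0.47 with single arrays left out, and ADAM17 by the mean of its features, at -0.16 for 96 h against 0 h and 0.43 for 144 h against 96 h. Scaling moved the median of all features by less than 0.1 in every comparison. Signal over background limits AXIN2, DKK1, WNT2 and WNT8B most, whose time means do not lie above the lower quartile. It also limits genes with readings near that level, such as HES7, HEY1, HES3, HEYL, DLL3, WNT4, RSPO4, GLI2 and PTCHD1.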
